A study of Mus musculus with 6 samples.

Results

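The genes described here are 57 markers of cell proliferation: 26 whose proteins act in mitosis and 31 whose proteins act in DNA replication or in the control of its genes. They were taken as a list of symbols and not by a cutoff on measured values. The list was drawn up with earlier results of these data known. Its genes were parted into the 2 classes by the known role of each protein. Each symbol occurred once among the 48393 gene symbols of the count tables. All 57 passed the filter on low counts that left 16739 genes for testing, and Orc1, the least abundant member, had at least 593 reads in every library.

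RNA had been sequenced from LSK cells of mouse marrow, which lack lineage markers, carry Sca-1 and c-Kit, and include blood stem cells and early progenitors. Every library traced back to C57BL/6 marrow from donors with the genotype Mx1Cre; Jak2V617F/+ (Jak2VF/+ in the labels) that had been primed with 5-fluorouracil. Thus the control marrow had the same genotype, with an activating, heterozygous Jak2 allele and Cre recombinase driven by the interferon-inducible Mx1 promoter. It too was infected with a lentivirus. The virus was the vector alone for 3 libraries and expressed Hmga2, a small chromatin protein with AT-hook DNA-binding motifs, for the other 3. Infected marrow was transplanted into C57BL/6 recipients that had received 2 doses of 550 cGy, and LSK cells were sorted 32 weeks later. The labels call the libraries of a group biological replicates. They name no selection for cells that took up the virus, give no age, and do not say whether a library came from 1 animal or a pool. The comparison asks how expression differed with the Hmga2 virus in LSK cells labelled Jak2VF/+.

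The level counted for Hmga2 was not higher in the libraries labelled Hmga2. It was at 5.96, 5.04 and 7.03 CPM in vector replicates 1, 2 and 3 and 2.63, 6.63 and 5.91 CPM in Hmga2 replicates 1, 2 and 3, where CPM is a gene's count scaled to a common library size, with TMM factors. The log2 fold change (Hmga2 label minus vector label) came to -0.25, 95% interval -1.08 to 0.58 (adjusted p = 0.934, edgeR's quasi-likelihood test with Benjamini-Hochberg adjustment). Whether reads of the introduced Hmga2 were counted under this symbol is unknown, so these values do not show whether the virus raised Hmga2. Directions below are therefore those of the libraries labelled Hmga2 and not of an Hmga2 effect. Total counts ranged from 24818011 to 35471806 per library. Immunoglobulin transcripts were abundant in vector replicates 1 and 3 and in Hmga2 replicate 2 (Igha from 2563 to 9081 CPM, against 191 to 235 CPM in the others), and Y-linked transcripts in Hmga2 replicates 1 and 3 (191 and 129 CPM summed, against 5.24 to 21.4 CPM). Kit, 1 of the genes behind the sort, was at 248 to 375 CPM, and Ly6a, which encodes Sca-1, at 19.3 to 59.1 CPM. The T cell marker genes Cd3e, Cd3d, Cd3g, Cd4 and Cd8a all failed the count filter. The 7 macrophage marker genes passed it, with summed levels from 119 CPM (vector replicate 1) to 308 CPM (Hmga2 replicate 3).

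Cells copy their DNA in S phase and part the copies in mitosis, and the genes for each task are switched on in turn. Replication genes are turned on at the end of G1 by E2F transcription factors, which the retinoblastoma protein holds back until then. Mitotic genes follow in G2 under the MuvB complex with B-MYB and FOXM1, which reaches many of them through a cell cycle homology region, or CHR, often beside a CCAAT box bound by NF-Y. In resting cells both classes are repressed by the DREAM complex. Most long-term stem cells in adult marrow are at rest, while the other progenitors in the LSK fraction divide more often, so the level of these transcripts in LSK cells is commonly read as a measure of cycling.

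The promoters of the 2 classes hold different short words, a property that the choice of members by protein function did not use. RefSeq start sites on GRCm38.p6 gave 300-base windows, from 250 bases before the start to 50 after it, for 21 of the 26 mitotic and 27 of the 31 replication members. Both strands were searched for the CHR, taken as the word TTTGAA or its variant TTTAAA (which reads the same on both strands). They were also searched for the E2F words TTTCCCGC, TTTCGCGC, TTTGCCGC and TTTGGCGC, which on opposite strands can overlap, and for the CCAAT box. A CHR word lay in 19 of 21 mitotic genes (90.5%) and in 9 of 27 replication genes (33.3%), beside 22.8% of the 10574 tested genes with a window and 27.6% of all 32851 windows. An E2F word lay in 12 of 27 replication genes (44.4%) and in 1 of 21 mitotic genes (4.76%), Cdk1, beside 4.49% of tested genes and 2.26% of windows. CCAAT was found in 18 of 21 mitotic genes (85.7%) and 18 of 27 replication genes (66.7%), beside 42.7% of tested genes. The replication members with an E2F word were Mcm3, Mcm5, Mcm6, Mcm7, Cdc6, Cdt1, Orc1, Pola1, Rfc3, Lig1, E2f2 and Uhrf1. These are matches of letters and no record of binding, and the difference between the classes was not tested.

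For the mitotic class the stretches of Cenpf, Kif23 and Plk1 are printed. Cenpf and Kif23 had the highest fold changes of the class and the kinase gene Plk1 was among the lowest, and all 3 hold CHR and CCAAT words. Each stretch runs 5′ to 3′ along the gene from 230 bases before the RefSeq start to 20 bases of the transcript, with the words found in capitals (ATTGG is CCAAT on the other strand). They lie at chr1:189688067-189688316 on the minus strand (Cenpf), chr9:61946780-61947029 on the minus strand (Kif23) and chr7:122159205-122159454 on the plus strand (Plk1).
Cenpf: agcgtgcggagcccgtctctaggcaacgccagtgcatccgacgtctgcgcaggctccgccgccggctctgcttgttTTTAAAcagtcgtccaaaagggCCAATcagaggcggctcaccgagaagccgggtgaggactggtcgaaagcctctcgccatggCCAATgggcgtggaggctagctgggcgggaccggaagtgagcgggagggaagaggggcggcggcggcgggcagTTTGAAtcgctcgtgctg
Kif23: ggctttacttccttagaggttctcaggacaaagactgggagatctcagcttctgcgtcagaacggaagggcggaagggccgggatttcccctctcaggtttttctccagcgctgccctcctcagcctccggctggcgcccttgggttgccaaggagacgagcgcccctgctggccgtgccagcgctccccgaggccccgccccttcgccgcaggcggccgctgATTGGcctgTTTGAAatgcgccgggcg
Plk1: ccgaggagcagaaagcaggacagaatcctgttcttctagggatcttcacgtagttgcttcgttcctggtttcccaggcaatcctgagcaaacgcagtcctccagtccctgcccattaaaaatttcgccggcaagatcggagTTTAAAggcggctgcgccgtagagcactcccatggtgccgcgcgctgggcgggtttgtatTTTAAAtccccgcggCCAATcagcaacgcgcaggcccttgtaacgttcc

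In Cenpf and Kif23 the word TTTGAA begins 2 bases after the base at which transcription starts. Plk1 has TTTAAA 29 bases before its start with CCAAT shortly behind it.

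For the replication class the stretches of Mcm5, Pola1 and Rrm2 are printed in the same way. Mcm5 and Pola1 hold E2F words, while Rrm2, the member with the lowest fold change, holds none of the 4 and carries TTTAAA at its start. They lie at chr8:75109279-75109528 on the plus strand (Mcm5), chrX:93632136-93632385 on the minus strand (Pola1) and chr12:24708024-24708273 on the plus strand (Rrm2).
Mcm5: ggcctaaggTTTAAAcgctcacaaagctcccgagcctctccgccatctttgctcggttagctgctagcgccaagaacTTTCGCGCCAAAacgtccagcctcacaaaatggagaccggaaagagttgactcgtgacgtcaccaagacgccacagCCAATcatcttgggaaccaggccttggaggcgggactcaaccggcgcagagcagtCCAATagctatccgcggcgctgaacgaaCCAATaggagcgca
Pola1: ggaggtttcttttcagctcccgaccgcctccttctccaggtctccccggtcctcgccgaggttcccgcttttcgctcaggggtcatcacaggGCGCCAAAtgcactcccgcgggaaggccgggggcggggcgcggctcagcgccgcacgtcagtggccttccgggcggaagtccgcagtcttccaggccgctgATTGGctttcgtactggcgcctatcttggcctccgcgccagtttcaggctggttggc
Rrm2: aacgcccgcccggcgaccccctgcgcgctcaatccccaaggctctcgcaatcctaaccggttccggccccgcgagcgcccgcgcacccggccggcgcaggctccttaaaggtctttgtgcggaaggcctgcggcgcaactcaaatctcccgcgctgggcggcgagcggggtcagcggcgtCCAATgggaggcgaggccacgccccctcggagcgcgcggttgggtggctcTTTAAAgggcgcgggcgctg

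The capitals TTTCGCGCCAAA of Mcm5 are 2 overlapping E2F words, TTTCGCGC read forwards and TTTGGCGC on the other strand. GCGCCAAA of Pola1 is TTTGGCGC on the other strand.

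No member of either class passed a test across all genes between the libraries labelled Hmga2 and the vector libraries. Mitotic members had a median log2 fold change of 0.02 (range -0.17 to 0.30, 15 positive and 11 negative), and replication members a median of -0.03 (range -0.20 to 0.21, 10 positive and 21 negative). Over all genes tested the median was 0.00, with 8429 positive and 8310 negative. edgeR's quasi-likelihood test called 0 of 57 members at an adjusted p under 0.05, against a background of 0% of 16739 genes, and the members' adjusted p ran from 0.855 to 0.996 with Benjamini-Hochberg adjustment. DESeq2 also called 0 of 57, against 0.261% of 25682 genes. At an unadjusted p under 0.05 there were 3 members, Cenpf and Kif23 (higher in the libraries labelled Hmga2) and Rrm2 (lower). They are 5.26% of the members, against 5.59% of all genes tested (2.23% higher and 3.36% lower). By class the shares are 7.69% of mitotic members, all higher, and 3.23% of replication members, all lower. The 2 groups of libraries did not overlap for 4 members (7.02%), these 3 and Mki67. Among all genes tested the share was 11.2% (5.28% with all Hmga2 libraries higher and 5.88% with all lower). With 1 library left out the groups did not overlap for 7 members (12.3%, without Hmga2 replicate 3) to 18 (31.6%, without vector replicate 1), while the share of all genes ran from 17.6% to 30.5% over the same 6 fits. By class, 3 mitotic (11.5%) and 1 replication member (3.23%) became 10 (38.5%) and 8 (25.8%) without vector replicate 1. The share of all genes in that fit was 30.5%.

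**Figure D1:**
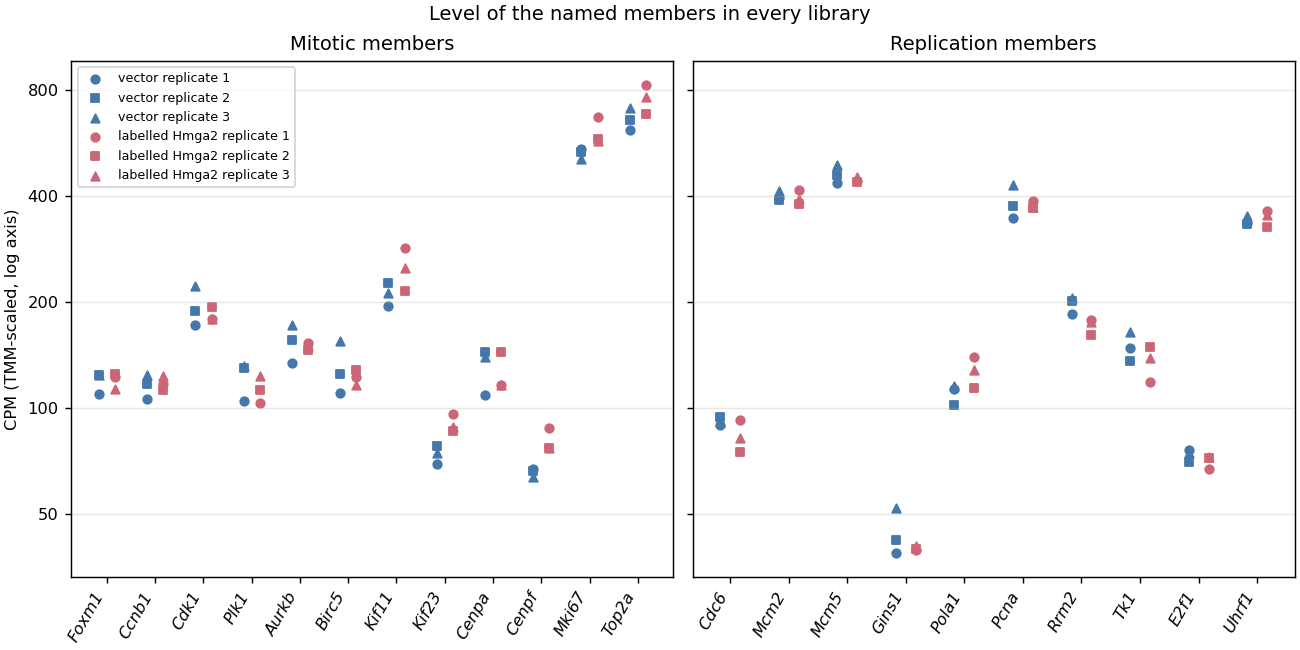
Level of 12 mitotic and 10 replication members in each of the 6 libraries, in TMM-scaled CPM on a log axis. Blue symbols are the vector libraries, red symbols the libraries labelled Hmga2, and the symbol shape gives the replicate; red lies wholly above blue for Mki67, Cenpf and Kif23 and wholly below it for Rrm2, and the colours overlap for the other 18 genes.

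The measurement was tight for these genes. The 95% interval of the fold change lay within 1.5-fold in either direction for 57 of 57 members, as it did for 53.7% of all genes tested and for 88% of the 7843 tested genes with a mean between 23.0 and 709 CPM, the range of the members. The farthest bounds were a 1.43-fold higher level for Kif11 and a 1.39-fold lower level for Orc1. Without vector replicate 2 or Hmga2 replicate 3, and in a fit with the replicate number as a block, Kif11 left that range, joined in the first 2 cases by Cenpe. Orc1 left it without Hmga2 replicate 1 or when Y-linked genes entered as a term, and the widest bound in any of these fits was 1.57-fold. The median standard error of the log2 fold change was 0.10 for mitotic and 0.09 for replication members, and 0.17 for all genes tested. Within groups, the median SD of log2 CPM was 0.13 in the mitotic class, 0.10 in the replication class and 0.13 in genes of the same range of level. In bulk RNA, fewer cycling cells and less RNA of these genes per cell cannot be told apart.

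**Figure D2:**
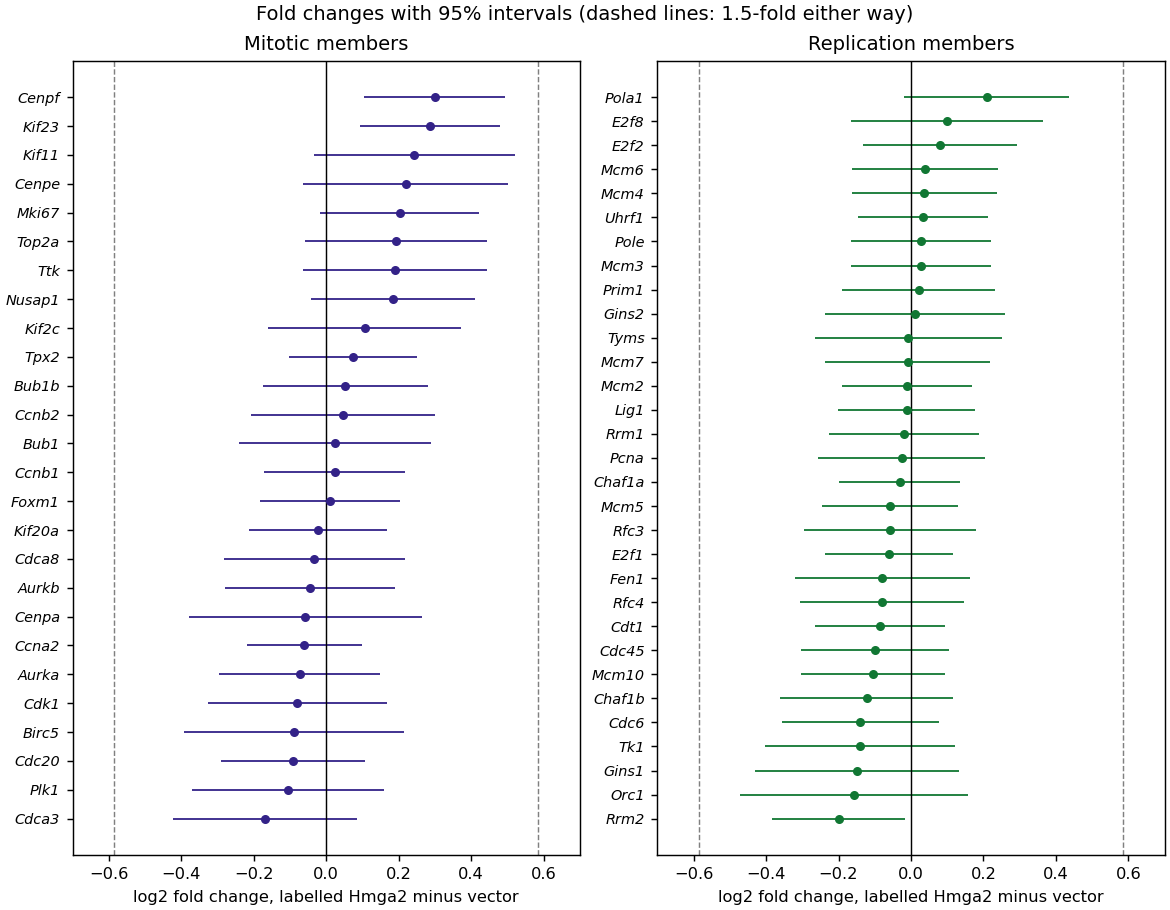
Log2 fold change, labelled Hmga2 minus vector, of the 26 mitotic and 31 replication members with 95% intervals from edgeR, ordered by fold change. Dashed lines mark 1.5-fold in either direction; every interval lies inside them, and 3 intervals (Cenpf, Kif23, Rrm2) do not reach 0.

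Mitotic entry is driven by cyclins A and B, the kinase they bind, and further kinases and factors that act with it. These 8 members (Foxm1, Ccna2, Ccnb1, Ccnb2, Cdk1, Plk1, Aurka and Cdca3) had log2 fold changes above 0 in 3 cases and below 0 in 5, the median being -0.07. Cdk1, the kinase that starts mitosis, was at 172, 188 and 222 CPM in vector replicates 1 to 3 and 179, 193 and 179 CPM in Hmga2 replicates 1 to 3, the order kept for the other genes. All values of the second group lay inside the range of the first, in which replicate 1 was lowest and replicate 3 highest. Ccnb1, encoding its partner cyclin B1, was at 106, 117 and 124 CPM, then 117, 112 and 123 CPM, again with the second group inside the first and vector replicate 1 lowest. Plk1, a kinase of centrosome maturation and spindle assembly, was at 105, 129 and 131 CPM, then 103, 113 and 123 CPM. Foxm1, the transcription factor of the mitotic programme, was at 109, 124 and 124 CPM, then 122, 125 and 113 CPM, so that the groups covered the same narrow span. Log2 fold changes were -0.08 for Cdk1 (SE 0.10), 0.02 for Ccnb1 (SE 0.08), -0.11 for Plk1 (SE 0.11) and 0.01 for Foxm1 (SE 0.08). Among the rest, Ccna2 (cyclin A2) was the steadiest mitotic member, with a highest library 1.09 times its lowest. Cdca3, an adaptor in the breakdown of the mitotic inhibitor WEE1, had the lowest fold change of the class, at 138 ± 17.2 CPM with vector and 123 ± 8.47 CPM under the Hmga2 label (SD, n = 3 per group; log2 fold change -0.17, SE 0.11).

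Aurkb, Birc5 and Cdca8 encode the kinase Aurora B, survivin and borealin, which travel together as the chromosomal passenger complex and correct the attachment of chromosomes to the spindle. Their log2 fold changes lay close together at -0.04, -0.09 and -0.03. Aurkb was at 134, 156 and 172 CPM in vector replicates 1 to 3 and 153, 146 and 149 CPM in Hmga2 replicates 1 to 3. Birc5 was at 110.1, 125 and 155 CPM, then 122, 128 and 116 CPM. In all 3 genes vector replicate 1 was the lowest library of the 6 and vector replicate 3 the highest, with the libraries labelled Hmga2 in between. The spindle checkpoint holds cells until every chromosome is attached. Its kinases Bub1 and Ttk and the inhibitor Bub1b had log2 fold changes of 0.02, 0.19 and 0.05, and Cdc20, the activator that the checkpoint blocks, of -0.09. Ttk was at 44.1 ± 5.07 CPM and at 50.2 ± 2.95 CPM, with overlapping groups.

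Of the 6 spindle motors and microtubule factors, 5 had log2 fold changes above 0, and their median was 0.15. Kif23, the kinesin MKLP1 that bundles the midzone for cytokinesis, was at 69.3, 78.0 and 74.7 CPM in vector replicates 1 to 3 and 96.3, 86.1 and 88.3 CPM in Hmga2 replicates 1 to 3. Every value of the second group was above every value of the first. Its log2 fold change was 0.29 (SE 0.08, 95% interval 0.09 to 0.48, unadjusted p = 0.01), which did not pass over all genes (adjusted p = 0.855 in edgeR, 0.435 in DESeq2). Kif11, the kinesin Eg5 that pushes the spindle poles apart, was at 195, 227 and 212 CPM, then 285, 215 and 249 CPM, with overlapping groups and Hmga2 replicate 1 far above the rest. The fold change of Kif11 was 0.24 on the log2 scale (SE 0.12) and 0.14 without Hmga2 replicate 1, its lowest value with any library left out. Nusap1, a microtubule-bundling protein, had a log2 fold change of 0.18, Kif2c, which removes tubulin at the kinetochore, of 0.11, Tpx2, the activator of Aurora A, of 0.07, and Kif20a, a kinesin of cytokinesis, of -0.02. The 3 members of the centromere behaved unevenly. Cenpf, a large coiled-coil protein of the outer kinetochore, was at 67.0, 66.1 and 63.6 CPM, then 88.0, 76.9 and 77.2 CPM. The vector values lay within a few CPM of each other and below all those of the other group. At 0.30 (SE 0.08, 95% interval 0.10 to 0.49, unadjusted p = 0.0083) it was the highest log2 fold change of all 57 members, with adjusted p = 0.855 in edgeR and adjusted p = 0.404 in DESeq2. Cenpe, the kinetochore motor, had a log2 fold change of 0.22 (SE 0.12) with overlapping groups. Cenpa, the histone H3 variant that marks the centromere, was at 109, 144 and 139 CPM, then 116, 144 and 116 CPM, which put high and low libraries in each group (log2 fold change -0.06, SE 0.14).

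Mki67 and Top2a act on the chromosomes themselves, as the surfactant-like coat that keeps mitotic chromosomes apart and as the enzyme that untangles them. Mki67, whose protein is the proliferation marker Ki-67, was at 544, 532 and 509 CPM in vector replicates 1 to 3 and 670.4, 579 and 574 CPM in Hmga2 replicates 1 to 3. The groups did not overlap, with Hmga2 replicate 1 well above the other 5 libraries. The log2 fold change was 0.20 (SE 0.09, 95% interval -0.02 to 0.42, adjusted p = 0.855 in edgeR), and 0.13 without Hmga2 replicate 1. Top2a was at 616, 658 and 712 CPM, then 827, 682 and 761 CPM. Here vector replicate 3 exceeded Hmga2 replicate 2, so the groups overlapped, and the log2 fold change was 0.19 (SE 0.11).

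Replication begins with licensing, in which ORC, CDC6 and CDT1 load the MCM helicase onto origins. Orc1, Cdc6 and Cdt1 all had negative log2 fold changes (-0.16, -0.14 and -0.09), and none passed a test. Cdc6 was at 89.6, 94.5 and 91.3 CPM in vector replicates 1 to 3 and 92.7, 75.2 and 82.0 CPM in Hmga2 replicates 1 to 3. Hmga2 replicates 2 and 3 lay below every vector library and Hmga2 replicate 1 within their range, for a log2 fold change with an SE of 0.09. Its value was -0.22 without Hmga2 replicate 1 and -0.07 without Hmga2 replicate 2.

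The 6 subunits of the replicative helicase, Mcm2 to Mcm7, varied little between libraries. Their log2 fold changes lay between -0.06 and 0.04 with a median of 0.01, and no interval reached beyond 1.185-fold. Mcm2 was at 394, 388 and 413 CPM in vector replicates 1 to 3 and 415, 379 and 392 CPM in Hmga2 replicates 1 to 3. Mcm5 was at 434, 459 and 490.1 CPM, then 440.1, 438 and 451 CPM. Both genes overlapped between groups, and the highest library of Mcm2 was 1.1 times its lowest. Per kilobase of the longest annotated transcript, the mean over all libraries was 178 CPM for Mcm7, 159 for Mcm6 and 134 for Mcm3. It was 134 for Mcm5, 114 for Mcm2 and 74.0 for Mcm4. This scale compares genes only roughly, since the transcripts expressed and the gene models behind the counts are not known. On that scale Pcna had the highest value of the members at 249.8 CPM per kilobase. Cenpf at 6.57, Orc1 at 7.64 and E2f2 at 7.65 had the lowest.

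Helicase activation needs CDC45 and the GINS complex, with MCM10. Log2 fold changes were -0.10 for Cdc45, -0.11 for Mcm10, -0.15 for Gins1 and 0.01 for Gins2. Gins1 was at 38.7, 42.2 and 51.9 CPM in vector replicates 1 to 3 and 39.5, 39.7 and 40.6 CPM in Hmga2 replicates 1 to 3. Its negative value rested on vector replicate 3, without which the log2 fold change was -0.01 (SE 0.12 with all 6 libraries).

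At the fork, 8 members had log2 fold changes from -0.08 to 0.21 with a median of -0.02. Pcna, the ring that tethers polymerases to DNA, was at 346, 373 and 429 CPM in vector replicates 1 to 3 and 387, 369.6 and 370.5 CPM in Hmga2 replicates 1 to 3. The second group sat inside the first, in which replicate 3 was highest (log2 fold change -0.03, SE 0.10). Pola1, the catalytic subunit of the polymerase that makes the primers together with Prim1, was at 113, 102 and 115 CPM, then 139, 114 and 129 CPM. It had the highest fold change of the replication members (0.21, SE 0.10, adjusted p = 0.855 in edgeR), with Hmga2 replicate 2 among the vector libraries. Prim1 itself was at 0.02, Pole, the leading-strand polymerase, at 0.03, and the clamp loader genes Rfc3 and Rfc4 at -0.06 and -0.08 on the log2 scale. Fen1 and Lig1, which trim and join Okazaki fragments, had log2 fold changes of -0.08 and -0.01.

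Deoxynucleotide synthesis was represented by Rrm1 and Rrm2, the large and small subunits of ribonucleotide reductase, and by Tyms and Tk1, which make thymidine nucleotides. All 4 log2 fold changes were below 0, with a median of -0.08. Rrm2 was at 185, 201 and 205 CPM in vector replicates 1 to 3 and 178, 161 and 175 CPM in Hmga2 replicates 1 to 3. Each value of the second group was below each of the first, though Hmga2 replicate 1 came close to vector replicate 1. Its log2 fold change of -0.20 (SE 0.08, 95% interval -0.38 to -0.02, unadjusted p = 0.037) was the lowest of all 57 members and did not pass over all genes (adjusted p = 0.855 in edgeR, 0.873 in DESeq2). Rrm1 was at 458 ± 24.7 and 452 ± 30.8 CPM (SD, n = 3 per group), with a log2 difference of -0.02. Per kilobase of the longest annotated transcript, a rough scale, the 2 subunits were at 83.2 and 84.0 CPM. Tk1 was at 148, 136 and 164 CPM, then 119, 149 and 139 CPM, with overlapping groups (log2 fold change -0.14, SE 0.11), and Tyms was at -0.01 on the log2 scale.

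Of the E2F factors, E2f1 and E2f2 activate replication genes and E2f8 represses them later in the cycle. E2f1 was at 76.1, 70.3 and 74.6 CPM in vector replicates 1 to 3 and 67.2, 72.0 and 72.7 CPM in Hmga2 replicates 1 to 3, with overlapping groups and a log2 fold change of -0.06 (SE 0.07). E2f2 and E2f8 had log2 fold changes of 0.08 and 0.10. Uhrf1, which carries DNA methylation onto the new strand, was at 334, 332 and 351 CPM, then 361, 326 and 353 CPM. Its groups overlapped and its log2 fold change was 0.03 (SE 0.08). Chaf1a and Chaf1b, subunits of the chromatin assembly factor that deposits histones behind the fork, had log2 fold changes of -0.03 and -0.12.

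In the mitotic class vector replicate 1 stood below the other 5 libraries. Of the 26 mitotic members, 19 had their lowest value in vector replicate 1. After the mean of each gene was subtracted from its log2 CPM, the median of the mitotic class was -0.16 in vector replicate 1, 0.04 in vector replicate 2 and 0.08 in vector replicate 3. In Hmga2 replicates 1, 2 and 3 it was 0.03, 0.03 and 0.02. Without vector replicate 1 the median log2 fold change of the class was -0.04, with 9 of 26 positive. Without vector replicate 3 it was 0.07, with 20 of 26 positive.

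The replication class had levels of -0.05, -0.02 and 0.11 in vector replicates 1, 2 and 3 and of 0.03, -0.04 and -0.04 in Hmga2 replicates 1, 2 and 3. Vector replicate 3 held the highest value for 13 of its 31 members and Hmga2 replicate 1 for 9. The median log2 fold change was 0.00 without vector replicate 3, with 15 of 31 positive, and 6 of 31 were positive without Hmga2 replicate 1. Within the immunoglobulin-rich libraries (Hmga2 replicate 2 against vector replicates 1 and 3) the medians were 0.04 for mitotic and -0.06 for replication members. Within the other libraries (Hmga2 replicates 1 and 3 against vector replicate 2) they were -0.02 and -0.01. Each subset has 1 library in an arm, so these values carry no spread and no test.

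**Figure D3:**
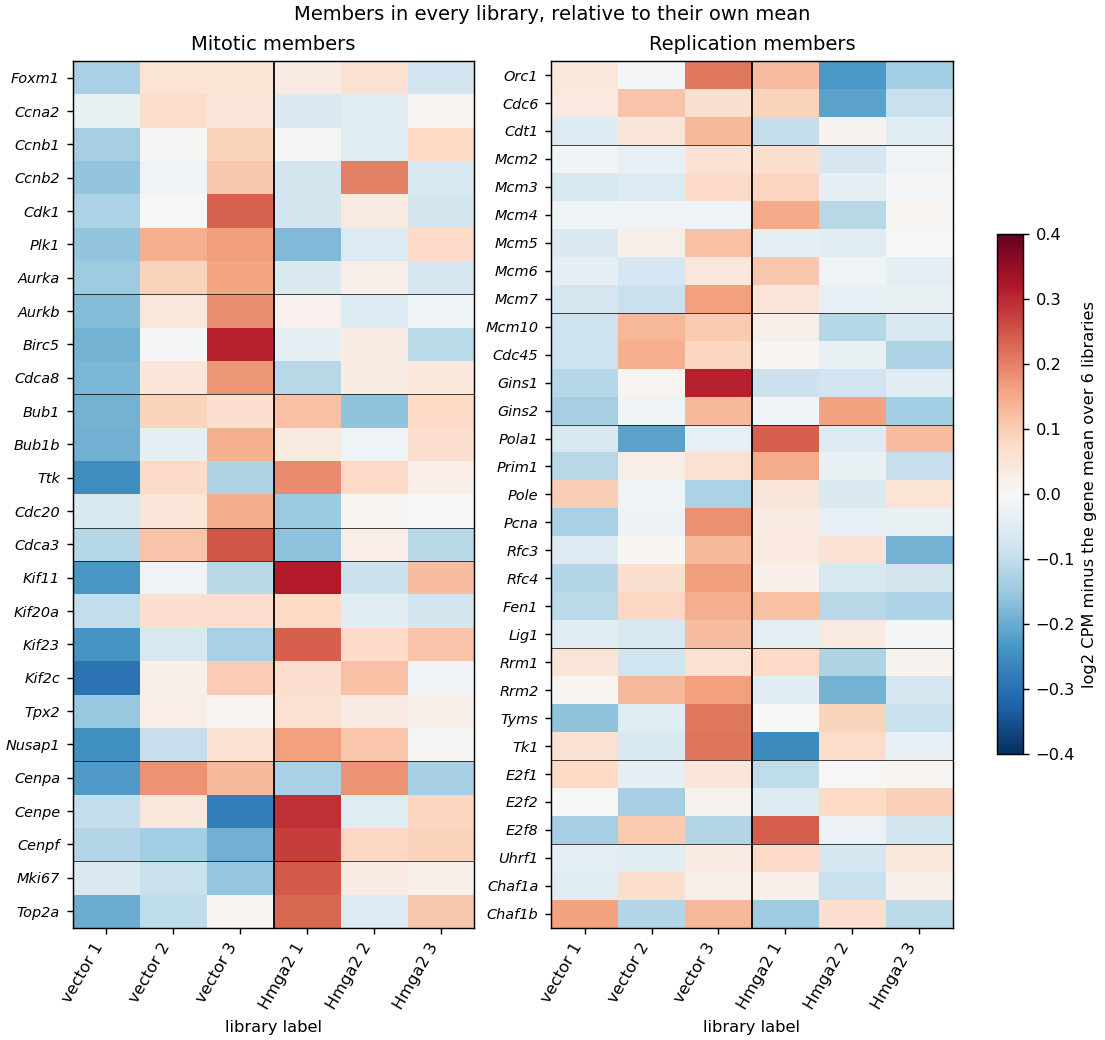
Log2 CPM of each member minus its mean over the 6 libraries, with mitotic members on the left and replication members on the right, grouped by role, vector libraries left of the vertical line and libraries labelled Hmga2 right of it. The column of vector replicate 1 is blue for most mitotic members (lowest library for 19 of 26), and that of vector replicate 3 red for many replication members (highest library for 13 of 31).

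Several lists of cell type markers differed between the libraries far more than the members did. For 12 stem cell markers, all above 0 in every library, the same centred level was 0.67, -0.75 and -0.39 in vector replicates 1, 2 and 3 and -0.15, 0.28 and 0.32 in Hmga2 replicates 1, 2 and 3. Their log2 fold changes were above 0 in 11 of 12, the median being 0.27, and both tools called 0. In edgeR 1 of the 12 had an unadjusted p under 0.05 (8.33%, against 5.59% of all genes). Vector replicate 1, lowest for most mitotic members, was the highest library for 8 of these 12 markers, and their summed level ranged over 524 to 959 CPM with vector and 761 to 943 CPM under the Hmga2 label. All 14 granulocyte progenitor genes had log2 fold changes below 0, the median being -1.44, with none at 0 in any library. Some were at only a few reads in libraries labelled Hmga2, with lowest values of 0.0283 CPM (Fcnb), 0.0583 CPM (Ltf) and 0.0874 CPM (Camp). DESeq2 called 4 of the 14 (Hp, Ms4a3, Ltf and Ngp), against 0.261% of all genes. Ltf averaged 2.28 CPM with vector and 0.25 CPM under the Hmga2 label, and Ngp 3.32 and 0.44 CPM. The abundant Mpo, Prtn3, Ctsg and Elane had log2 fold changes of -0.57, -0.67, -0.51 and -1.50. edgeR called 0 of the 14, with 10 at an unadjusted p under 0.05 and all 10 lower, against 3.36% of all genes. Their summed level was 4550 to 9432 CPM and 3080 to 4929 CPM in the 2 groups, with vector replicate 2 highest for 12 of 14. The 10 tested B and plasma cell genes summed to 223 to 1097 CPM and to 196 to 505 CPM. The plasma cell gene Jchain was at 25.4 to 840.4 CPM and the B cell factor gene Pax5 was listed at 0 in 4 libraries. Of the 10, 8 had negative log2 fold changes, with a median of -0.99. Both tools called 0, and 1 had an unadjusted p under 0.05 in edgeR (10%, against 5.59% of all genes). All 6 tested megakaryocyte genes had positive log2 fold changes, with a median of 0.26, and both tools called 0. Of 14 erythroid genes, 10 had negative log2 fold changes, with a median of -0.59. DESeq2 called 3 of the 14, all lower (Rhd, Blvrb and Klf1), against 0.261% of all genes. edgeR called 0 of the 14, with 7 at an unadjusted p under 0.05, all lower (50%, against 3.36% of all genes). The groups did not overlap for 4 (28.6%, against 11.2% of all genes). The part of these cell types in the levels of the members was not tested.

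**Figure D4:**
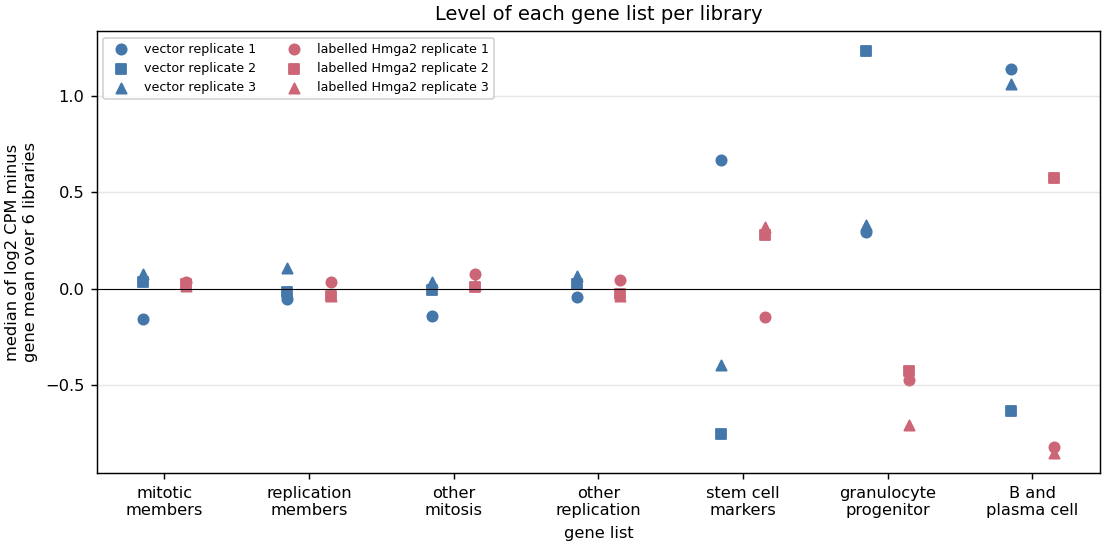
Median over each gene list of log2 CPM minus the gene's mean over the 6 libraries, for the 2 member classes, 2 further lists of mitosis and replication genes and 3 marker lists, with blue for vector and red for libraries labelled Hmga2. The member classes stay between -0.16 and 0.11, while granulocyte progenitor genes run from -0.70 to 1.23.

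The same pathways were followed in genes outside the list. Of 79 further mitosis genes tested, 56 had log2 fold changes above 0 and 23 below, the median being 0.08 (0.02 without vector replicate 1 and 0.12 without vector replicate 3). edgeR and DESeq2 called 0 of them. In edgeR 4 had an unadjusted p under 0.05 (5.06%), all higher in the libraries labelled Hmga2. Of all genes, 5.59% did in either direction, 2.23% higher and 3.36% lower. The groups did not overlap for 17 (21.5%, against 11.2% of all genes), of which 15 were higher and 2 lower. Among all genes 5.28% had all Hmga2 libraries higher and 5.88% all lower. With 1 library left out that count was lowest at 20 without Hmga2 replicate 1 (25.3%, against 17.6% of all genes). It was highest at 29 without vector replicate 3 (36.7%, against 20.7%). Without vector replicate 1 it was 26 (32.9%, against 30.5%). Aspm, which focuses spindle poles, had the smallest p of these, at 50.1 ± 1.63 CPM with vector and 62.4 ± 2.12 CPM under the Hmga2 label (SD, n = 3 per group; log2 fold change 0.32, SE 0.08, adjusted p = 0.855). The others were Ckap2l, Ckap5 and Kif20b, with log2 fold changes of 0.19, 0.25 and 0.26.

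Of 68 further replication genes tested, 34 had positive and 34 negative log2 fold changes, with a median of 0.00. Both tools called 0. The groups did not overlap for 4 (5.88%, against 11.2% of all genes). In edgeR 1 gene had an unadjusted p under 0.05 (1.47%, against 5.59% of all genes). That gene, Pold2, a subunit of the lagging-strand polymerase, was at 129 ± 8.24 and 111 ± 4.76 CPM (log2 fold change -0.21, SE 0.08). Among 21 regulators of the 2 programmes the tools again called 0, with 12 positive values and a median of 0.07, and 2 had an unadjusted p under 0.05 in edgeR (9.52%, against 5.59% of all genes). Of the 21, 4 had groups that did not overlap (19%, against 11.2% of all genes), and 10 without vector replicate 1 (47.6%, against 30.5%). E2f4, which represses cell cycle genes in the DREAM complex, was at 178, 203 and 189 CPM in vector replicates 1 to 3 and 152, 154 and 155 CPM in Hmga2 replicates 1 to 3. Its groups were well apart, and the log2 fold change was -0.31 (SE 0.07, adjusted p = 0.855 in edgeR and adjusted p = 0.145 in DESeq2). Mybl2, encoding B-MYB of the mitotic programme, was at 126, 138 and 127 CPM, then 107, 108 and 116 CPM. The groups of Mybl2 did not overlap either, and its log2 fold change was -0.24 (SE 0.07, adjusted p = 0.855 in edgeR and adjusted p = 0.59 in DESeq2).

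Within both classes the small differences followed transcript length, and in the mitotic class GC content as well, a pattern seen in the data and then described. Across the 26 mitotic members Spearman's rho between log2 fold change and the longest annotated transcript was 0.59, across the 31 replication members 0.56, and across the 16292 tested genes with a length 0.24; these are correlations across genes that share the same 6 libraries. With the GC content of that transcript rho was -0.64 for mitotic members, farther from 0 than with length, 0.05 for replication members and -0.19 over all genes. Length and GC content were not separated. The 37 members longer than 2878 bases, the median of all tested genes, had 21 positive values, and the 20 shorter ones had 4. The shares were 56.8% and 20% for members and 61.1% and 39.3% for all tested genes. Cenpf (11130 bases, 0.30), Mki67 (10061 bases, 0.20) and Cenpe (7910 bases, 0.22) were the longest transcripts and among the highest log2 fold changes. Chaf1a (7698 bases, -0.03) and Pole (7163 bases, 0.03) were nearly as long and near 0. At the other end stood Gins1 (1087 bases, -0.15), Rfc4 (1279 bases, -0.08) and Pcna (1518 bases, -0.03). None of the 11 short replication members had a value above 0.

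The libraries themselves differed by length. The median centred level of the longest 25% of genes minus that of the shortest 25% was 0.11, -0.04 and -0.32 on the log2 scale in vector replicates 1, 2 and 3 and 0.17, -0.11 and 0.14 in Hmga2 replicates 1, 2 and 3. Without vector replicate 3 rho over all genes was 0.06, with 0.46 for mitotic and 0.30 for replication members, and with Y-linked genes as a term it was 0.04, 0.44 and 0.27. With each library's trend on length taken out, rho was 0.01 over all genes, 0.26 for mitotic and 0.05 for replication members. The trend was fitted to these same libraries, so a low rho over all genes and smaller values for the longest genes were built in. This fit would also take out any difference between the groups that went with length. In that fit the log2 fold change was 0.16 for Cenpf and 0.07 for Mki67, against 0.27 for Kif23, -0.17 for Rrm2 and 0.13 for Pola1, and the class medians were 0.02 and -0.05. The smallest adjusted p of a member was 0.802 in edgeR. What set the length trend of the libraries was not tested.

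**Figure D5:**
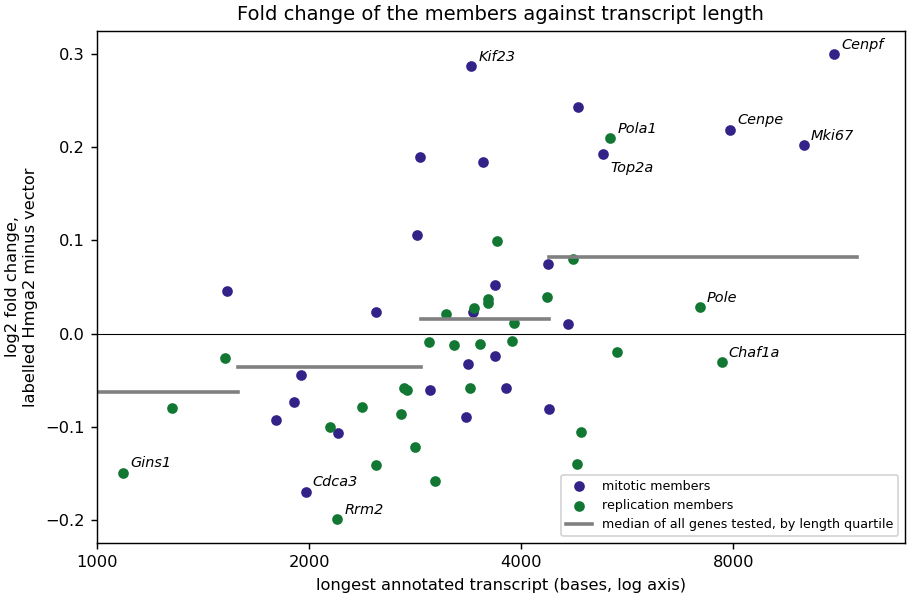
Log2 fold change, labelled Hmga2 minus vector, of the members against the length of the longest annotated transcript in bases (log axis), with mitotic members in violet and replication members in green. Grey bars are the medians of all tested genes in each 25% of genes by length, which run from -0.06 for the shortest to 0.08 for the longest, and Cenpf, Mki67 and Cenpe lie at the upper right.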

How the data were processed

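The authors deposited expected counts per gene symbol, 1 table per library, as judged from the values: none was below 0 and 67.3% to 70.1% of values above 0 were whole. Partek 3.0, Bowtie2 and build mm10 are named, per the submitters' processing notes; the counter, the annotation and whether strand was used were not given in the sources used here. Antisense or overlapping genes may therefore share reads, as may near-identical copies.

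After rounding to whole numbers, the whole table was tested with edgeR 4.0.16 (R 4.3.3; TMM scaling, genes kept by filterByExpr, quasi-likelihood fit on group alone, Benjamini-Hochberg adjustment, threshold 0.05), and with DESeq2 1.42.0 on all genes above 0. The steps were also tested on simulated data. The changed genes there had larger fold changes than any member, so recovery of differences as small as the members' was not tested. Standard errors came from the F statistic. At these depths 3 reads equal 0.0846 to 0.121 CPM, for counting error only, and the chi-square per degree of freedom between replicates, 24.8 to 57.0, exceeded counting noise. The p-values measure the spread between these libraries. Centred levels used log2 CPM with a prior count of 2. Lengths and positions came from GENCODE M21 (97.3% of tested symbols), promoters from RefSeq. All 57 members may be named; values in every library were given for 14 well-known members and, in each class, for the 4 with the smallest p, the 2 with the largest fold change and the 2 with the largest spread within groups. Members, lists and tests were chosen with earlier results of these data known. Ttk, Cdca3, Ccna2 and the other members named with less detail follow from their role. The alternatives tried were DESeq2 and its size factors, a replicate block, leaving out each library, no count filter, immunoglobulin genes left out, a term for Y-linked genes, a term for libraries rich in immunoglobulin (over 1000 CPM of Igha) and 1 word per promoter motif. The correction for a length trend (lowess span 0.3) was added after seeing the data.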

Additional observations from a re-analysis of the deposited data

How the results depend on the processing

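No member was called under any alternative run, and the class medians and class levels stayed within the spread between replicates of their values. In the fit with the replicate number as a block, the medians were 0.02 for mitotic and -0.02 for replication members with 0 called. The labels do not say whether libraries of the same number were handled together. Their deviations from the group means had correlations of -0.21, -0.50 and -0.26. These cannot decide it, since with 3 libraries a group the deviations within a group depend on each other. Leaving out 1 library at a time, the medians ran from -0.04 to 0.07 and from -0.06 to 0.00. Over 308 values of the 22 members with full values, 17 changed sign and none was called (smallest adjusted p = 0.404, in DESeq2). Sign changes came with the term for Y-linked genes in Ccnb1 (-0.014), Cenpa (0.039) and Uhrf1 (-0.018) and with the length trend taken out in Foxm1 (-0.046) and Pcna (0.032); the cause was not tested. With a library left out, signs changed in Aurkb (-0.14 to 0.048), Birc5 (-0.20 to 0.064), Ccnb1 (-0.036 to 0.081), Cdk1 (-0.16 to 0.032), Cenpa (-0.18 to 0.018), Foxm1 (-0.050 to 0.052), Mcm2 (-0.047 to 0.021) and Pcna (-0.095 to 0.071). With a library left out, members with an unadjusted p under 0.05 numbered 2 to 5 in the mitotic class and 0 to 2 in the replication class. The share of all genes at that threshold in those fits is not given here, so these counts are not read as an excess. With all 6 libraries they were 7.69% and 3.23% of the classes, against 5.59% of all genes. Those whose groups did not overlap, with a library left out, numbered 3 to 10 and 1 to 8. The lowest were 11.5% (against 17.6% of all genes, without Hmga2 replicate 1) and 3.23% (against 19.1%, without Hmga2 replicate 3). The highest, without vector replicate 1, were 38.5% and 25.8%, against 30.5% of all genes. Over the whole table, 1 gene was called with no filter, 1 with the Y-linked term and 67 by DESeq2. With TTTGAA alone as the CHR word the share was 76.2% of mitotic members, and with TTTCGCGC alone as the E2F word 25.9% of replication members. With 3 libraries a group, differences well under the interval bounds could not be resolved.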
